A study of Mus musculus with 11 samples.

Results

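The collagen genes of the mouse were followed through single-cell RNA sequencing of whole lung. Members were all rows of the deposited matrices whose gene symbol is Col, a number, the letter a and a number, which gave 44 of 31053 genes. The rule uses gene symbols only. Lungs of 4 genotypes were dissociated with dispase and collagenase, red blood cells were lysed, and cells were captured on the 10x Genomics 3′ platform. WT was wild type (+/+) with 1 library. The 3 p21Het libraries came from mice with 1 working copy of p21 (gene Cdkn1a; +/-). The 5 p21mTert libraries came from mice with an allele of p21 that holds mTert, the mouse telomerase reverse transcriptase, beside a normal allele (+/mTert). The 2 p21mTertCD libraries came from mice with an mTertCD allele in its place (+/mTertCD), a name that the labels do not spell out. All 3 engineered genotypes therefore keep 1 normal p21 allele, per the labels. Mice were 18 months old per the age labels, apart from p21Het_1 at 19 and p21mTert_1 at 20 months, although the titles of these 2 libraries also give 18. Strain and sex are not used here. The WT library and the first p21Het and p21mTert libraries were deposited earlier than the other 8. WT is 1 library, so it is given as values and not tested against other genotypes.

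Libraries held 42038434 to 85988955 UMIs (unique molecular identifiers, each standing for 1 captured RNA molecule), and 69266 of 81983 barcodes passed the filter of 1000 to 30000 UMIs and at most 14% mitochondrial UMIs. Any 2 libraries shared 4 to 20 of these barcodes. Cells were assigned to 4 lineages and 16 types by marker genes, among which there was no collagen. Types of lung epithelium (284 AT1, 3545 AT2, 302 club and 1446 ciliated cells) and lung capillaries (4373 gCap and 862 aCap cells) were found, as the lung label requires. Levels are given as CPM, a gene's UMIs per 1000000 UMIs of all genes, summed over the cells of a type in 1 library, with the mean ± SD over libraries that hold at least 20 cells of the type. A 3′ UMI is counted once per molecule whatever the length of the transcript, so no division by length was made. How well 2 genes are captured can still differ, so each gene is compared mainly with itself in other cells. In whole tissue, fewer cells of a type and less RNA per cell cannot be told apart, so levels within a type are given beside those over all cells.

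Collagens are secreted or membrane proteins of 3 chains wound into a triple helix, and each gene encodes 1 kind of chain. Fibrillar collagens (types I, III and V among them) form the load-bearing fibres of the airway, vessel wall and alveolar septum. Type IV forms the network of basement membranes, where the alveolar wall keeps epithelium and capillary endothelium close enough for gas exchange. Type VI forms beaded filaments near cells. Fibril-associated collagens decorate fibres, multiplexins (Col15a1 and Col18a1) sit at basement membranes, and Col13a1, Col17a1, Col23a1 and Col25a1 stay in the cell membrane. By these roles the 44 members were 11 fibrillar, 6 type IV, 6 type VI, 9 fibril-associated, 3 short-chain network-forming, 1 anchoring-fibril, 4 transmembrane, 2 multiplexin and 2 other collagens.

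Several members lie head to head in the genome. Positions are from GENCODE M21 (GRCm38). Col4a3 (chr1:82586921-82722059, plus strand) and Col4a4 (chr1:82448423-82586849, minus strand) start 72 bases apart, and Col4a5 and Col4a6 on the X chromosome 1309 bases apart. The annotated genes Col4a1 (chr8:11198423-11312826, minus strand) and Col4a2 (chr8:11312805-11449287, plus strand) overlap at their 5′ ends, with starts 21 bases apart. Col3a1 and Col5a2 are neighbours on chromosome 1 with 24615 bases between them, but lie tail to tail, with starts 191744 bases apart. Upstream sequences are shown for members on which the results below turn. They are the bases between Col4a3 and Col4a4, both high in AT1 cells, the upstream bases of Col1a2 and Col3a1, which led the fibroblasts, and those of Col13a1 and Col15a1, which stood at opposite ends of the comparison between the 2 fibroblast types. They come from RefSeq's promoter windows (GRCm38.p6), were cut where a GENCODE exon begins, and read 5′ to 3′ along the strand of the named gene. The Col1a2 stretch is upstream of the RefSeq start only. In GENCODE it lies within the gene, whose start is at base 4504814, in an intron of a longer transcript. Capitals mark matches, on either strand, to 3 short motifs: the CCAAT box, the GC box (letters GGGCGG) and the TATA box (letters TATAAA). No motif overlaps another in the stretches shown.
Col4a4 (chr1:82586850-82586920, minus strand, all bases up to the start of Col4a3): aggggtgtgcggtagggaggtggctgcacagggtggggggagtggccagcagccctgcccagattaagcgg
Col1a2 (chr6:4505370-4505492, plus strand, ending 125 bases before the RefSeq start): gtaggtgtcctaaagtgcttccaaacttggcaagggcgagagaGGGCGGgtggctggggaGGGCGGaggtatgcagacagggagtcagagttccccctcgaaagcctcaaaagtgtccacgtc
Col3a1 (chr1:45311288-45311537, plus strand): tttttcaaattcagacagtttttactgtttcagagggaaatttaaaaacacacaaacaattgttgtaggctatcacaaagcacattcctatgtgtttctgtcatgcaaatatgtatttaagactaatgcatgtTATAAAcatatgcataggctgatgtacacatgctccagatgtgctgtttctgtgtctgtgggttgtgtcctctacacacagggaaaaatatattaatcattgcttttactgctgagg
Col13a1 (chr10:61979109-61979358, minus strand): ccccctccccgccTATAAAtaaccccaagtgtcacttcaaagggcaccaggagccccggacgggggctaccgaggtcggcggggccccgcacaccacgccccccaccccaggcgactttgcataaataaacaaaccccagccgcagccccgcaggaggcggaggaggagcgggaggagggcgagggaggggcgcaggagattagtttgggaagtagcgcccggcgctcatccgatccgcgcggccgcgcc
Col15a1 (chr4:47207762-47208011, plus strand): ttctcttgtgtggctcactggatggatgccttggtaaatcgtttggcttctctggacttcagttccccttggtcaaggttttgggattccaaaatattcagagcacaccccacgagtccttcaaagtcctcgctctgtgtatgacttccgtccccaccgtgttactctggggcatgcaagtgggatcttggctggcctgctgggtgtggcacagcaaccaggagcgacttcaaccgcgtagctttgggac

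The stretch between Col4a3 and Col4a4 is 71 bases long and held none of the 3 motifs. The Col1a2 stretch held 2 matches to GGGCGG, those of Col3a1 and Col13a1 each held 1 match to TATAAA, and that of Col15a1 held none. Over the 250 bases upstream of the start in all 32851 windows of the table, 32.7% held GGGCGG, 33.8% CCAAT and 12.4% TATAAA. Of the members, 35 had windows, 38 in all, and among these 22 held GGGCGG (57.9%), 13 CCAAT (34.2%) and 5 TATAAA (13.2%). A match is only a match of letters, and no match says only that these letters are not in this window. Col1a1, Col2a1, Col4a3, Col5a2, Col9a3, Col12a1, Col14a1, Col22a1 and Col26a1 have no window in the table.

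A few genes held most of the collagen RNA, and a small share of the cells held a large part of it. Over all kept cells, 200853 UMIs were of collagens. Col4a1 alone held 20.4% of them, followed by Col4a2 (10.8%), Col1a2 (10.7%), Col3a1 (9.09%), Col6a1 (7.86%) and Col1a1 (6.08%), and these 6 genes together held 64.8%. At the other end, 11 members had fewer than 100 UMIs in all libraries together, among them Col2a1 with 16, and Col9a1 had none. Types II, IX and XI are collagens of cartilage. Of these, Col11a2 had 784 and Col9a3 167 UMIs, while Col11a1 had 27 and Col9a2 18. Mesenchymal cells, at 2.79% ± 1.31 (SD, n = 11) of those kept, held 45.0% ± 7.68 of the collagen UMIs. Epithelial cells (8.03% of cells) held 22% ± 4.3, endothelial cells (10.1% of cells) 16.1% ± 3.88, and immune cells (72.5% of cells) 10.6% ± 2.80. The rest lay in cells that the markers put in no lineage or in more than 1. Between types, the summed collagen level was highest in adventitial fibroblasts with 8200 ± 1123 CPM (n = 11), then alveolar fibroblasts with 5219 ± 613 (n = 10), AT1 cells with 4685 ± 314 (n = 5) and smooth muscle with 3260 ± 458 (n = 9). The order of the alveolar fibroblasts and AT1 cells was within their spread. Capillary and lymphatic endothelium had 1016 to 1212 CPM on average, AT2 cells 475 ± 37.3, and lymphoid cells 32.0 ± 11.6, the lowest.

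**Figure D1:**
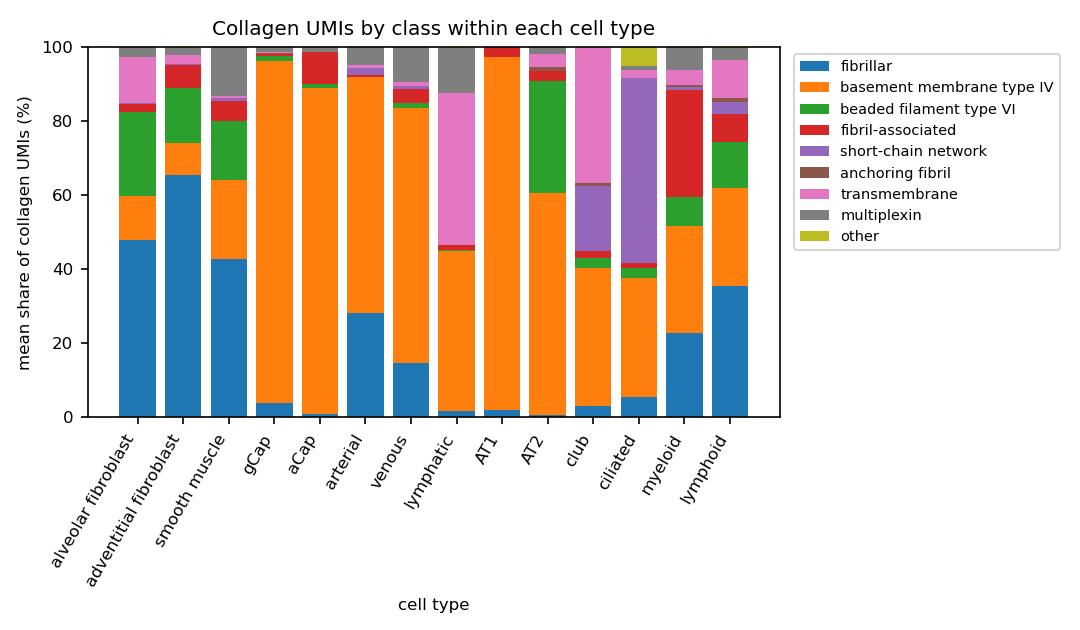
Share of collagen UMIs by structural class within each of 14 cell types (vertical axis, mean % over libraries with at least 20 cells; colours, classes). Type IV made up 95.2% in AT1 cells and 92.4% in gCap cells, fibrillar collagens 65.5% in adventitial fibroblasts, and transmembrane collagens 40.9% in lymphatic endothelium.

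Lymphoid cells served as a rough guide to the RNA that cells can pick up from their surroundings. Their leading collagens were Col4a1 at 3.63 ± 1.69 CPM and Col1a2 at 3.20 ± 3.00 CPM (n = 11), both among the 3 collagens with the most UMIs over all cells. Values of a few CPM in other types are near this level. The guide is not a floor for them, since the same picked-up RNA gives a different CPM in cells of other depth. In p21Het_1 the median was 3913.5 UMIs in lymphoid, 2670 in gCap and 18737 in AT2 cells. Whether each lymphoid level is picked-up RNA was not tested.

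**Figure D2:**
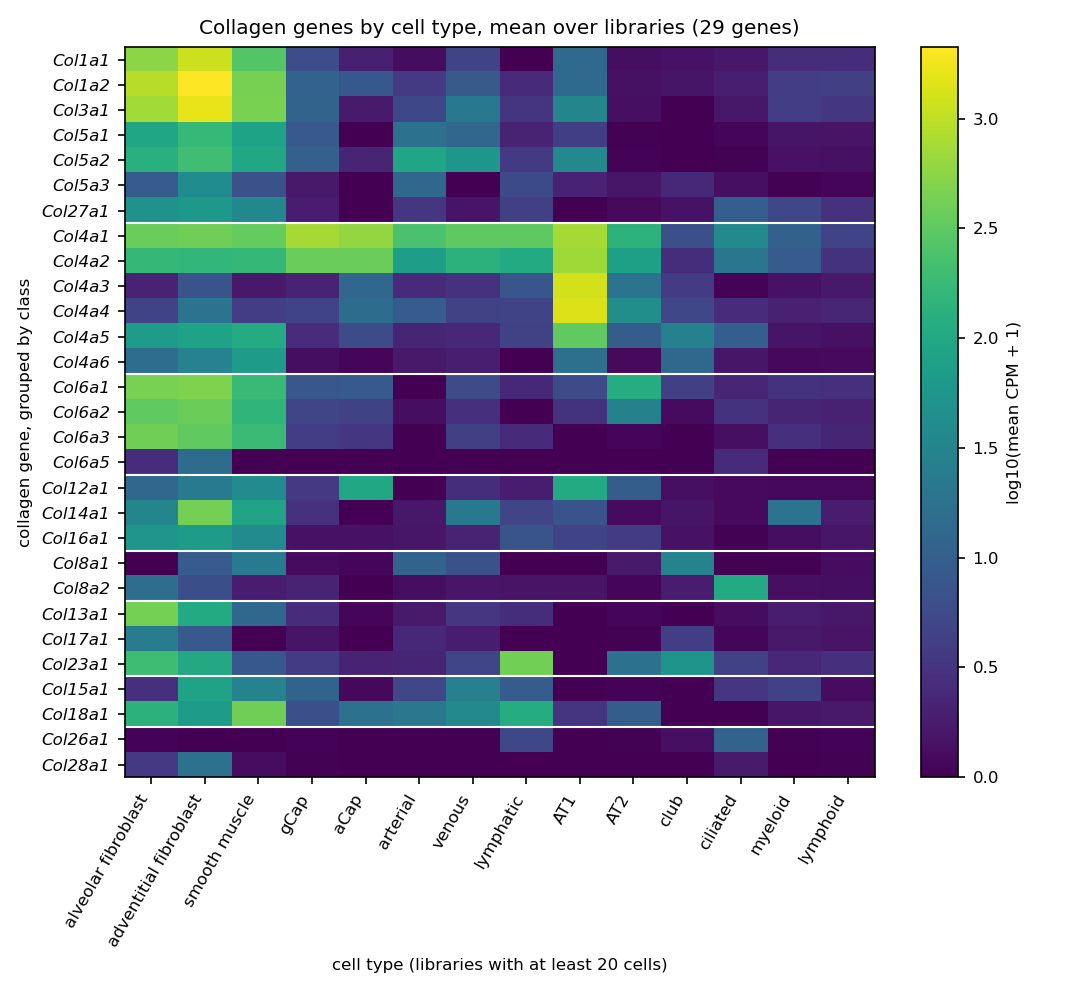
Mean level of the 29 collagen genes that reached 10 CPM in at least 1 of 14 cell types (rows, genes grouped by class with white lines between classes; columns, types; colour, log10 of mean CPM + 1). Fibroblasts and smooth muscle carry most classes, while Col4a3 and Col4a4 stand out in AT1 cells, Col23a1 in lymphatic cells and Col8a2 in ciliated cells.

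Fibrillar collagens were highest in adventitial fibroblasts, the fibroblasts of the cuffs around airways and large vessels. There, Col1a2 (a chain of type I, the main fibre collagen) stood at 2117 ± 287 CPM, Col3a1 (type III, found with type I in distensible tissue) at 1625 ± 360 and Col1a1 (the other chain of type I) at 1181 ± 289 CPM (n = 11). In alveolar fibroblasts, the fibroblasts of the gas-exchange septa, the same genes stood at 941 ± 123, 727 ± 187 and 560 ± 99.1 CPM (n = 10). Smooth muscle had 443 ± 121, 459 ± 82.7 and 271 ± 60 CPM (n = 9). The ratio of the 2 type I chains was similar. There were 184 ± 24.6 Col1a2 UMIs per 100 of Col1a1 in adventitial fibroblasts, 170 ± 13.8 in alveolar fibroblasts and 163 ± 28.1 in smooth muscle. These ratios overlapped between the 3 types, and lymphoid cells, with 184 ± 62.9 in the 6 libraries with enough UMIs, overlapped them too.

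Alveolar and adventitial fibroblasts were compared within 10 libraries by edgeR's quasi-likelihood test with a term for each library. Of the 44 members, 24 had enough counts to be tested. The adjusted p was under 0.05 for 5 that were higher in alveolar fibroblasts, while 15.0% of the 7788 genes tested were, and for 15 that were lower, against 19.4% of all genes. The median log2 fold change of the tested members was -0.60, against 0.000087 over all genes. A member that is tested because it is high in 1 of the types is more likely to differ. These counts and medians, and those of the later comparisons of types, therefore only describe the genes counted.

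Among those higher in alveolar fibroblasts were 3 of the membrane-bound collagens. Col13a1, a transmembrane collagen of cell-matrix contacts, ranged from 362 to 479 CPM in alveolar and from 63.5 to 156 CPM in adventitial fibroblasts. The ranges did not overlap, and its log2 fold change was 1.89 ± 0.11 (SE, n = 10 libraries, edgeR adjusted p = 7.24e-15). Col17a1, the transmembrane collagen of epithelial hemidesmosomes, was lower in level but also higher in all 10 libraries (24.0 ± 6.36 against 6.88 ± 3.87 CPM, log2 fold change 1.70 ± 0.30). Col23a1 had a log2 fold change of 0.92 ± 0.12 and the multiplexin Col18a1, the source of the fragment endostatin, one of 0.78 ± 0.13, both higher in 10 of 10 libraries. Col6a3 was just past the threshold (0.26 ± 0.10, edgeR adjusted p = 0.0481), and its call was lost in DESeq2 (adjusted p = 0.0865), without the library term (0.187) and in 8 of the fits that leave out a library.

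Among those lower in alveolar fibroblasts, Col15a1 and Col14a1 had the largest fold changes. Col15a1, the other multiplexin, ranged from 0 to 8.35 CPM in alveolar and from 43.8 to 130 CPM in adventitial fibroblasts, with a log2 fold change of -5.47 ± 0.30 (edgeR adjusted p = 1.95e-15, n = 10). Col14a1, which binds the surface of collagen fibres, ranged from 11.99 to 67.4 against 288 to 633 CPM, with -4.02 ± 0.17 (edgeR adjusted p = 2.59e-18). Neither pair of ranges overlapped. The fold change of Col15a1 moved to -6.22 without p21Het_2 and to -4.88 without p21mTert_4. Col28a1 (-3.01 ± 0.44), Col5a3 (-2.52 ± 0.28) and Col4a4 (-2.23 ± 0.42) followed at lower levels. The type I and III chains fell together, with Col1a1 at -1.18 ± 0.09, Col1a2 at -1.27 ± 0.07 and Col3a1 at -1.28 ± 0.08, each lower in 10 of 10 libraries. The ranges of these 3 genes and of Col5a1 (-0.98 ± 0.10), a chain of type V, did not overlap between the types either. Col4a1, Col4a2, Col6a1 and Col27a1 did not pass the test, with log2 fold changes of -0.14 ± 0.10, -0.06 ± 0.12, -0.14 ± 0.08 and -0.27 ± 0.16. The gate left 25.3% of adventitial and 15.7% of alveolar fibroblasts with exactly 3 markers or a lead of 1 over the next type. Each type held markers of the other. With a lead of 2 markers required, the log2 fold changes were 2.42 for Col13a1, -4.81 for Col14a1 and -6.16 for Col15a1.

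**Figure D3:**
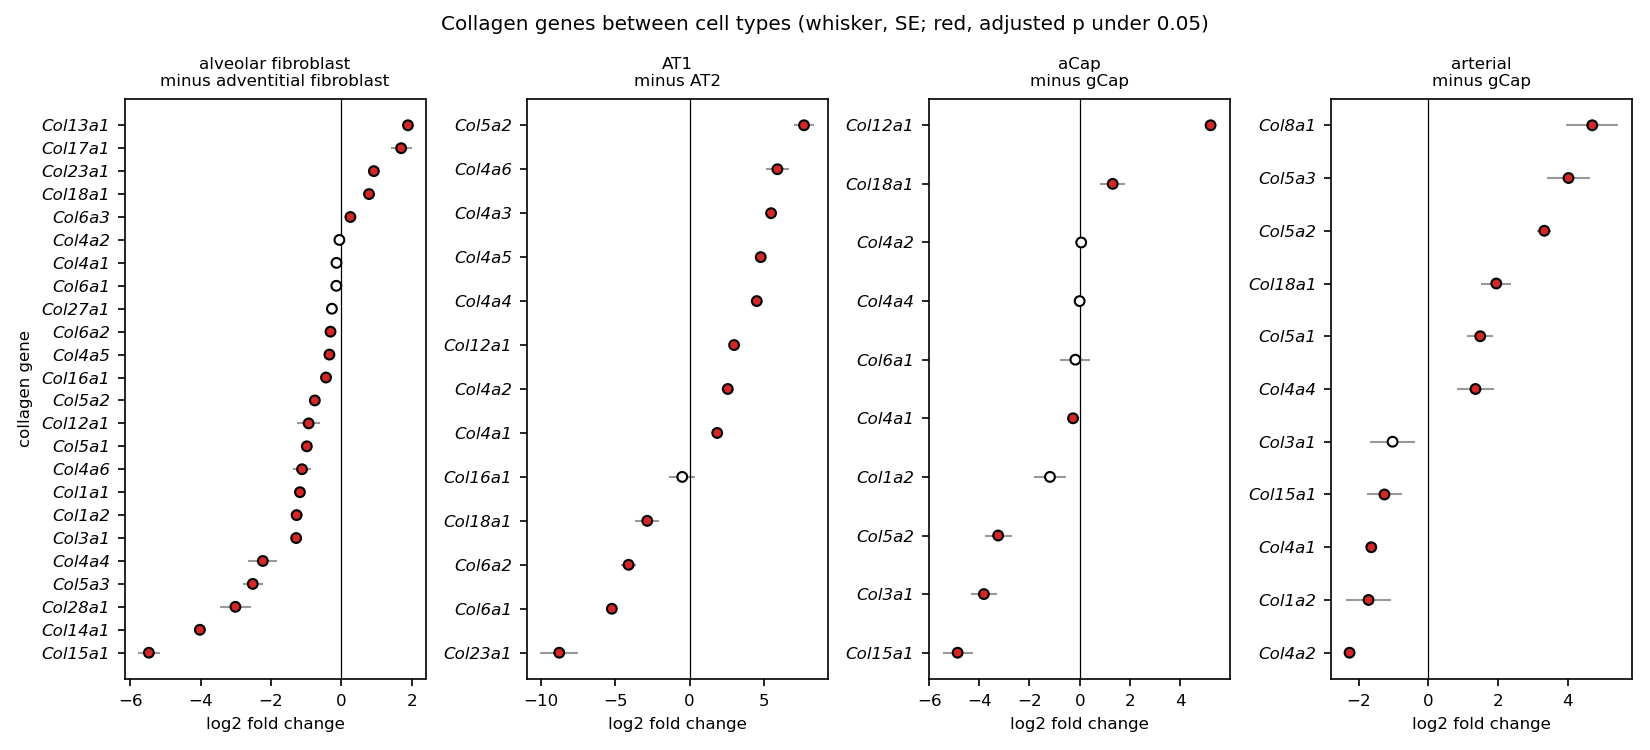
Log2 fold change (horizontal axis) of every collagen gene tested in 4 comparisons of cell types, with SE as whiskers and red points for adjusted p under 0.05 (edgeR). In fibroblasts 5 of 24 points are red and above 0 and 15 red and below it; points for genes with 0 to 3 UMIs in the lower type, such as Col23a1 in AT1 cells, depend on the prior count of the fit.

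Smooth muscle was set apart by Col18a1, at 404 ± 106 CPM (234 to 597, n = 9), compared with 134 ± 17.2 in alveolar and 68.9 ± 24.4 in adventitial fibroblasts. Its lowest library lay above the highest of either fibroblast type (159 and 107 CPM). The type IV chains Col4a5 (111 ± 28.1 CPM) and Col4a6 (66.6 ± 16.3 CPM), which assemble together in smooth muscle basement membrane, were also highest there apart from Col4a5 in AT1 cells. Pericytes were too few for a test, with 24 cells and at most 4 in a library. Pooled over libraries, their 119186 UMIs held 284 of Col4a1 (2383 CPM, exact Poisson 95% interval 2114 to 2677), 163 of Col4a2 (1368 CPM, 1166 to 1594) and 102 of the short-chain network collagen Col8a1 (856 CPM, 698 to 1039). Mesothelial cells, which line the lung surface, were pooled from 87 cells. They held 655 UMIs of Col3a1 (560 CPM, 518 to 605) and 401 of Col4a4 (343 CPM, 310 to 378), but only 67 of Col4a3 (57.3 CPM, 44.4 to 72.8). These intervals cover counting error only.

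The alveolar epithelium carried the type IV genes of the specialised basement membrane. In AT1 cells, the flat cells of the gas-exchange surface, Col4a4 stood at 1244 CPM in p21mTert_5, 1252 in p21mTert_2, 1453 in p21Het_2, 1553 in p21mTert_3 and 1555 in p21mTert_4. Col4a3 stood at 1135 in p21mTert_5, 1150 in p21mTert_3, 1238 in p21mTert_2, 1292 in p21mTert_4 and 1411 CPM in p21Het_2. The next highest type in 20 or more cells per library was the AT2 cell, at 17.7 CPM of Col4a3 and 42.7 CPM of Col4a4 on average. These were the only libraries with at least 20 AT1 cells, and genotypes were not compared in this type. The α3, α4 and α5 chains, encoded by Col4a3, Col4a4 and Col4a5, assemble with each other in the basement membranes of the kidney glomerulus and the lung alveolus. Col4a5 stood at 325 ± 55.2 CPM, and the ubiquitous chains Col4a1 and Col4a2 at 761 ± 93.9 and 702 ± 102 CPM (n = 5). The 5 libraries were close together for each of these chains.

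Within these 5 libraries, AT1 cells were compared with AT2 cells, the cuboidal surfactant cells, by the same test. Of 13 members tested, 8 were higher in AT1 cells (19.3% of 11022 genes were) and 4 lower (26.4% of genes). The median log2 fold change was 2.57, against -0.08 over all genes. As in fibroblasts, these figures only describe the members, since some, such as Col4a6 (0.15 CPM in AT2 cells), were tested through 1 type. All 6 type IV genes were higher. Col4a3 rose by 5.48 ± 0.17 on the log2 scale, from 19.4 ± 4.12 CPM in AT2 to 1245 ± 113 CPM in AT1 cells (edgeR adjusted p = 1.75e-23, n = 5). Col4a5 (4.79 ± 0.17) and Col4a4 (4.52 ± 0.16) followed, and Col4a2 (2.57 ± 0.14) and Col4a1 (1.86 ± 0.14) rose less. Col4a6 rose from 0.15 to 16.1 CPM. The chains also differed in proportion. AT1 cells had 92.8 ± 12.8 UMIs of Col4a2 per 100 of Col4a1, compared with 55.7 ± 3.93 in AT2 cells and 48.2 ± 3.82 in gCap cells, and the lowest AT1 library (72.9) lay above the highest AT2 library (63.1). Conversely, there were 114 ± 14.0 UMIs of Col4a4 per 100 of Col4a3 in AT1 but 249 ± 39.8 in AT2 cells, again with no overlap (101 to 135 against 188 to 311). Both pairs share a start region, as described above.

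AT1 cells also had collagens outside type IV. Col12a1, a fibril-associated collagen, stood at 106 ± 50.4 CPM, 2.99 ± 0.24 higher on the log2 scale than in AT2 cells (edgeR adjusted p = 9.61e-13). Col5a2, a chain of the type V collagen that starts fibres, had 48 UMIs in AT1 cells against 3 in AT2 cells, a ratio per UMI of 413 (exact 95% interval 133 to 2070), and lay between 23.4 and 47.7 CPM in all 5 libraries. Col1a1, Col1a2 and Col3a1 were high in AT1 cells of p21mTert_3 only (63.6, 63.6 and 159 CPM), where 12 mesenchymal markers summed to 1261 CPM, against 12.6 to 22.4 CPM in the other 4 libraries. In those 4 libraries Col3a1 was at 0 to 2.49 CPM.

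AT2 cells held UMIs of 2 type VI genes but almost none of Col6a3. Col6a1 stood at 115 ± 23.0 CPM and Col6a2 at 27.8 ± 11.1 CPM (n = 11), both lower in AT1 cells (log2 fold changes -5.22 ± 0.35 for Col6a1 and, for Col6a2, 3 UMIs in AT1 cells, which makes AT2 cells 12.4 times higher with an exact interval of 4.22 to 60.04). In AT1 cells Col6a1 had 3 UMIs in each of p21mTert_3 and p21mTert_4 and 0 in the other 3 libraries. Its log2 fold change was -6.00 without p21mTert_3, -6.17 with a stricter lineage gate (4 markers and a lead of 3) and -7.75 with the cells of highest Scrublet doublet score left out. The mesenchymal markers summed to 1261 CPM in AT1 cells of p21mTert_3, as given above, and their part in this value was not tested. Col6a3, whose chain joins those of Col6a1 and Col6a2 in the usual type VI molecule, had 0.14 ± 0.19 UMIs per 100 of Col6a1 in AT2 cells, and at most 0.64 in any library. In alveolar fibroblasts this ratio was 91.4 ± 17.3, in adventitial fibroblasts 67.4 ± 17.9 and in lymphoid cells 73.3 ± 47.4. AT2 cells also had less Col6a2 per 100 of Col6a1 (23.6 ± 5.27) than alveolar fibroblasts (71.1 ± 10.0), and the ranges did not overlap (14.0 to 31.1 against 55.7 to 88.9). The 12 mesenchymal markers summed to 2.52 to 24.0 CPM in AT2 cells. Col23a1 was the other member lower in AT1 cells at some level. It had 478 UMIs in AT2 and 0 in AT1 cells of the same 5 libraries, so with a floor of 3 counts over the group it was at least 6.18-fold higher in AT2 cells.

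The airway cells had their own members. In ciliated cells, Col8a2, a short-chain network collagen known from the corneal endothelium, stood at 107 ± 16.9 CPM (83.7 to 142, n = 11), and the short-chain class made up 49.9% of their collagen UMIs. Col26a1 reached 10.4 ± 4.03 CPM there. In club cells Col23a1 led with 51.3 ± 19.0 CPM (n = 8), followed by Col8a1 at 30.0 ± 32.0 CPM. Col8a1 was uneven, at 0 in 3 of the 8 libraries and at 69.0 and 76.5 CPM in p21Het_2 and WT.

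Type IV made up 92.4% of the collagen UMIs of gCap cells and 88.3% of those of aCap cells. In gCap cells, the general capillary cells, Col4a1 stood at 754 ± 185 CPM and Col4a2 at 362 ± 86.5 CPM (n = 11). In aCap cells, the large capillary cells that face AT1 cells, they stood at 620 ± 102 and 373 ± 62.4 CPM (n = 10). Arterial cells had 234 ± 74.1 and 73.0 ± 32.9 CPM (n = 9), and venous cells 320 ± 65.4 and 135 ± 33.1 CPM (n = 11). Arterial cells lay below gCap cells in every one of 9 libraries, and their Col4a2 was also lower relative to Col4a1 (29.4 ± 11.2 UMIs per 100).

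Between aCap and gCap cells (10 libraries), 10 members were tested, of which 2 were higher in aCap (20.6% of 9581 genes were) and 4 lower (23.7%). The median log2 fold change of these members was -0.22 and that of all genes -0.04. Col12a1 separated the capillary types, with 54.3 to 148 CPM in aCap and 0 to 6.33 CPM in gCap cells. Its log2 fold change was 5.22 ± 0.22 (edgeR adjusted p = 2.68e-14, n = 10), and it was higher in 10 of 10 libraries. AT1 and aCap cells were the 2 types in which Col12a1 was highest. Col15a1, at 11.3 ± 6.21 CPM in gCap cells, had a single UMI in aCap cells (gCap 48.4 times higher, exact interval 8.57 to 1923). Col5a2 (10.2 ± 3.80 CPM in gCap) was lower by -3.25 ± 0.53, and Col4a1 by -0.27 ± 0.07. Col3a1 had 3 UMIs in aCap cells (gCap 21.3 times higher, 7.2 to 104), but 153 of its UMIs in gCap cells came from p21Het_2. Col4a2 did not pass the test (0.06 ± 0.08). Col18a1 was called higher in aCap cells (1.32 ± 0.51, edgeR adjusted p = 0.0407), though it was higher in only 7 of 10 libraries and reached 90.5 CPM in p21mTertCD_1. The call was lost in 10 alternatives, 7 of which leave out a library (adjusted p at most 0.155). Col4a3 and Col4a4 were high in aCap cells of WT alone (109 and 138 CPM, at most 5.11 in other libraries). The epithelial markers there summed to 870 CPM, against 19.5 to 241 elsewhere, and their part in these values was not tested.

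Fibrillar collagens made up 28.2% of the collagen UMIs of arterial cells, compared with 3.8% in gCap cells. Against gCap cells in 9 libraries, 6 of 11 tested members were higher (17.4% of 9026 genes were) and 4 lower (17.2%). The median log2 fold change was 1.35 against -0.04 over all genes. These figures too only describe the members, since Col8a1 (0.30 CPM) and Col5a3 (0.69 CPM) were near 0 in gCap cells. Col5a2 rose by 3.32 ± 0.20 on the log2 scale, from 9.89 ± 3.92 to 92.1 ± 25.1 CPM (edgeR adjusted p = 2.41e-15), and in 9 of 9 libraries. Col8a1, known from vessel walls (4.70 ± 0.75, higher in 6 and lower in 1 of 9 libraries), Col5a3 (4.02 ± 0.62), Col18a1 (1.95 ± 0.43) and Col5a1 (1.49 ± 0.37) were higher too. The other gene called higher, Col4a4, named after its values were seen, was near the threshold (1.35 ± 0.52, edgeR adjusted p = 0.0441). It stood at 0 to 21.8 CPM in arterial cells and was higher in 6 and lower in 3 of 9 libraries. Col4a2 fell by 2.26 and Col4a1 by 1.64 on the log2 scale (SE 0.14 and 0.11). Col15a1 and Col1a2 were called lower, but each lost its call in several fits, among them the one without p21Het_2 (adjusted p 0.128 and 0.385). By the gate, 50.2% of arterial cells had exactly 3 markers or led the next type by a single marker. With a lead of 2 required, 3 members were higher and 2 lower, and the log2 fold change of Col18a1 was 3.00. Without the library term only 3 members had enough counts to be tested, of which Col5a2 was called higher and Col4a1 and Col4a2 lower.

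Lymphatic endothelium was the type with the most Col23a1, a transmembrane collagen shed from the cell surface, at 411 ± 94.2 CPM (279 to 571, n = 9). The next type was the alveolar fibroblast at 198 ± 29.0 CPM (154 to 238), which did not overlap it. Col18a1 (113 ± 52.2 CPM) stood below Col4a1 (321 ± 81.9 CPM) there.

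In myeloid cells 1 collagen, Col14a1, reached a mean of 10 CPM. Col14a1 ranged from 8.37 to 27.5 CPM in myeloid cells (17.5 ± 6.26, n = 11) and from 0 to 3.69 CPM in lymphoid cells, without overlap. It took the largest part in the fibril-associated share of 28.9% of myeloid collagen UMIs. The 12 mesenchymal markers summed to 29.9 to 364 CPM in myeloid and 8.84 to 98.0 CPM in lymphoid cells, and their part in the Col14a1 level was not tested.

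The enzymes and partners that fold, process, crosslink and bind collagen were examined through a list of 57 genes. Between alveolar and adventitial fibroblasts 9 of 42 tested were higher and 20 lower, against 15.0% and 19.4% of all genes. Lox, the lysyl oxidase that crosslinks fibres, was higher in alveolar fibroblasts (357 ± 148 against 119 ± 50.6 CPM, log2 fold change 1.52 ± 0.13), as were Colgalt2, a collagen galactosyltransferase (2.73 ± 0.38), and Lama5, a laminin chain (1.81 ± 0.44). Bmp1 and Adamts2, which cleave procollagen, and Loxl3 were lower (-2.23 ± 0.22, -1.69 ± 0.10 and -1.56 ± 0.24). In AT1 against AT2 cells 24 of 36 were higher and 6 lower, against 19.3% and 26.4% of all genes. Plod2, the lysyl hydroxylase of telopeptides, stood at 421 ± 52.2 CPM in AT1 and 0.43 ± 0.30 CPM in AT2 cells (9.18 ± 0.23). Pxdn, the peroxidase that links type IV collagen, rose by 7.34 ± 0.38 and Lox by 5.89 ± 0.67, while Bmp1 (-3.56 ± 0.23) and Mia3, which helps export procollagen (-1.15 ± 0.24), fell. Itga1, a chain of a collagen-binding integrin, had 0 UMIs in AT1 cells and was at least 4.68-fold higher in AT2 cells.

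In aCap against gCap cells 13 of 33 listed genes were higher and 8 lower, against 20.6% and 23.7% of all genes. Pcolce2, an enhancer of procollagen cleavage, stood at 521 ± 81.9 CPM in aCap and 9.66 ± 10.3 CPM in gCap cells (5.76 ± 0.23), and Lamc1 (1.73 ± 0.10) and Plod1 (1.20 ± 0.11) were also higher. Lama5 (-3.10 ± 0.20), Sparc, a collagen-binding protein (-2.74 ± 0.33), and Itga1 (-2.26 ± 0.07) were lower. In arterial against gCap cells 10 of 36 were higher, led by Lox (4.77 ± 0.35), Lama3 (4.48 ± 0.52) and Hspg2, the basement membrane proteoglycan perlecan (2.67 ± 0.27), and 8 were lower, among them Colgalt2 (-1.95 ± 0.50), Pxdn (-1.75 ± 0.13) and Pcolce2, with 1 UMI in arterial cells (gCap 24.1 times higher, exact interval 4.27 to 960). Of all genes, 17.4% were higher in arterial cells and 17.2% lower. All values in these 2 paragraphs passed edgeR's test at an adjusted p under 0.05.

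Genotypes were then compared. The comparisons chosen were p21mTert against p21Het, p21mTert against p21mTertCD, and p21mTertCD against p21Het, and the 3 share libraries. The labels name the genotypes but state no comparisons. WT, with 1 library, is given as a value. The summed collagen level over all kept cells was 258, 335 and 416 CPM in p21Het, from 224 to 638 with a median of 381 CPM in p21mTert, 277 and 467 in p21mTertCD, and 296 in WT. The groups overlapped. Mesenchymal cells made up 1.43% to 5.65% of the cells of a library, and no test was made of this sum. Within mesenchymal cells it was 6101 ± 548 CPM in p21Het (n = 3), 5366 ± 652 in p21mTert (n = 5), 5788 ± 733 in p21mTertCD (n = 2) and 5533 in WT. In gCap cells it was 1205 ± 299, 1245 ± 291, 1303 ± 325 and 889 CPM in the same order, and in AT2 cells 455 ± 43.7, 476 ± 23.1, 523 ± 4.75 and 429 CPM. Apart from the AT2 level of p21mTertCD, which lay at 520 and 526 CPM above the highest other library (504), p21Het, p21mTert and p21mTertCD overlapped. WT was the lowest of the 11 libraries in gCap cells. The next lowest were p21Het_1 and then p21mTert_1, the other libraries of the earlier deposit. Those libraries and WT had a median of 6.30% to 6.58% mitochondrial UMIs per kept barcode, against 2.82% to 4.28% in the later ones. Their median depth was 4133 to 4420 UMIs, against 5122.5 to 6454. WT is known from the earlier deposit only, so its genotype and its deposit cannot be told apart.

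No collagen gene was called between genotypes by edgeR's quasi-likelihood test at an adjusted p under 0.05, in any of 27 fits (9 units of cells by 3 comparisons). The counts below are given in the order p21mTert against p21Het, p21mTert against p21mTertCD and p21mTertCD against p21Het. Over all kept cells, 34 members were tested and 0, 0 and 0 called, while 0.0114%, 0.00571% and 0.120% of all genes were. At an unadjusted p under 0.05 there were 0, 1 and 0 members (7.24%, 16.1% and 6.26% of all genes), and DESeq2 called none (0.178%, 3.40% and 1.05% of all genes). Their median log2 fold changes were 0.14, -0.10 and 0.07, against 0.015, 0.019 and -0.030 over all genes. In mesenchymal cells 0 of 27 members were called in each, with 0.00971%, 0.00971% and 0% of all genes. At an unadjusted p under 0.05 there were 2, 1 and 2 members (6.00%, 4.10% and 3.55% of all genes). DESeq2 called none (0.0194%, 0.0291% and 0.00971% of all genes), and the medians were -0.12, -0.05 and -0.05 against -0.0045, 0.0030 and -0.0078.

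In endothelial cells 0 of 17 members were called by edgeR in each comparison (0.0176%, 0.0529% and 0.00882% of all genes), with 5, 3 and 1 at an unadjusted p under 0.05 (4.05%, 6.99% and 4.63% of all genes). DESeq2 called 0, 1 and 0 (0.0795%, 0.486% and 0.256% of all genes), and the medians were -0.27, -0.47 and 0.05 against -0.00074, 0.0058 and -0.0061. In epithelial cells 0 of 21 were called by edgeR (0.0769%, 0.0308% and 0.00769% of all genes), with 3, 3 and 2 at an unadjusted p under 0.05 (9.05%, 6.73% and 4.31% of all genes). DESeq2 called 0, 1 and 0 (0.192%, 0.131% and 0.0385% of all genes), and the medians were 0.0089, -0.35 and 0.37 against -0.0036, 0.0046 and -0.0076. edgeR's shares of called genes are so low that 0 members does not set the family apart.

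The same held within cell types, where edgeR called 0 members each time. In alveolar fibroblasts 19 members were tested (0.0798%, 0% and 0% of all genes called), with 3, 0 and 3 members at an unadjusted p under 0.05 (4.58%, 4.64% and 4.2% of all genes) and medians of -0.17, -0.04 and -0.28. In adventitial fibroblasts 24 were tested (0%, 0.0148% and 0.0295% of all genes), with 1, 0 and 1 at an unadjusted p under 0.05 (5.24%, 4.68% and 4.21%) and medians of -0.10, 0.08 and -0.16. In gCap cells 10 were tested (0.0103%, 0.0719% and 0.0513%), with 2, 0 and 0 (3.24%, 5.34% and 4.28%) and medians of -0.23, -0.39 and -0.25. In aCap cells 3 were tested (0.326%, 0% and 0.0326%), with 0, 0 and 0 (3.85%, 6.37% and 6.42%) and medians of -0.05, -0.25 and 0.23. In AT2 cells 13 were tested (0.0532%, 0.0266% and 0%), with 2, 1 and 2 (6.18%, 6.33% and 3.49%) and medians of 0.14, -0.01 and 0.09. Over all genes tested the medians in these 5 types lay between -0.012 and 0.013. DESeq2 called no member in any of them, and 0% to 0.483% of all genes. For lack of 20 cells, p21Het_3 was left out of the alveolar fibroblast and aCap fits. Of the 57 genes that process or bind collagen, 25 to 56 were tested per fit, and edgeR called 0 in each of the 27. At an unadjusted p under 0.05 there were 0 to 5 of them per fit (3.24% to 16.1% of all genes), and DESeq2 called 1 in each of 3 fits and none in the others (0% to 3.40% of all genes).

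**Figure D4:**
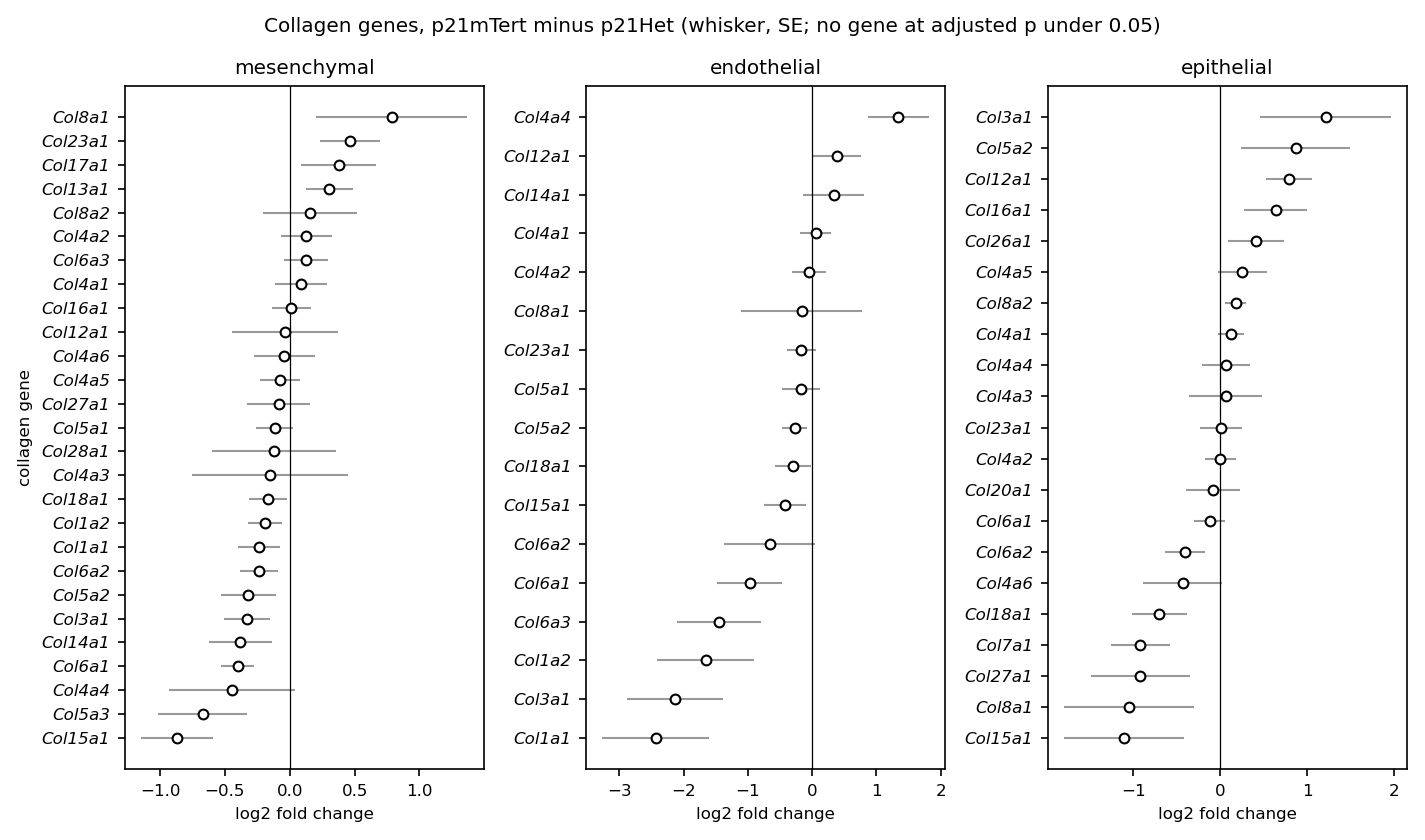
Log2 fold change, p21mTert minus p21Het (horizontal axis), of every collagen gene tested in mesenchymal (27), endothelial (17) and epithelial (21) cells, with SE as whiskers. No gene had an adjusted p under 0.05 (edgeR).

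The fibrillar genes show the size of the spread. In mesenchymal cells, Col1a1 stood at 816, 751 and 627 CPM in p21Het_1 to p21Het_3. It was 838, 455, 590, 605 and 611 CPM in p21mTert_1 to p21mTert_5, 748 and 593 CPM in p21mTertCD, and 751 CPM in WT. The groups overlapped, and the log2 fold change of p21mTert against p21Het was -0.24 ± 0.16 (SE). For Col3a1 it was -0.33 ± 0.17 and for Col1a2 -0.19 ± 0.13, neither past the test. In gCap cells, Col4a1 stood at 539, 848 and 799 CPM in p21Het, 576 to 1090 with a median of 752 CPM in p21mTert, 987 and 659 CPM in p21mTertCD, and 502 CPM in WT. Its log2 fold change of p21mTert against p21Het was 0.12 ± 0.25, and that of Col4a2 0.04 ± 0.27. For both chains p21Het, p21mTert and p21mTertCD overlapped, and WT was the lowest of the 11 libraries for Col4a1. The next lowest was p21Het_1 (539 CPM), which like WT is of the earlier deposit.

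**Figure D5:**
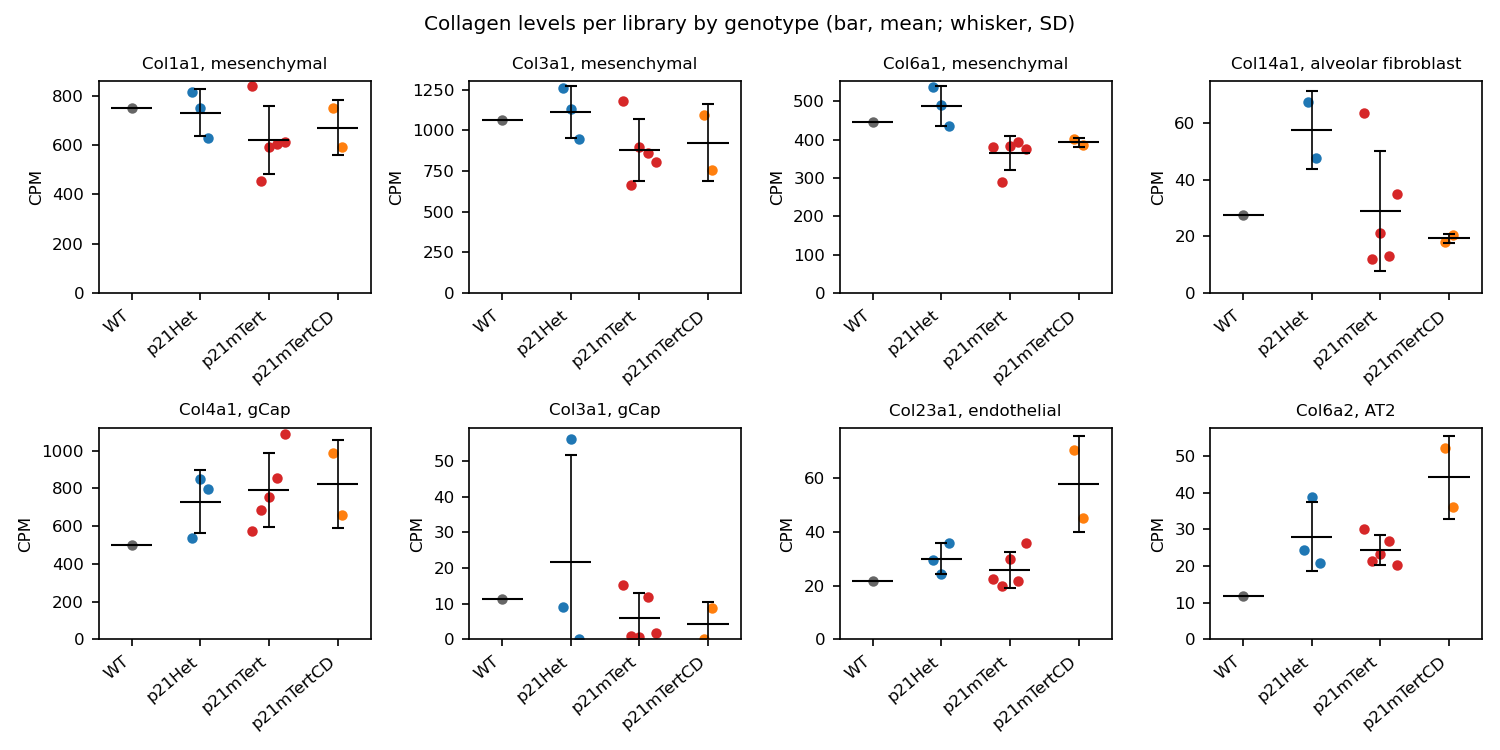
CPM per library (points) of 8 pairs of a collagen gene and a cell type, by genotype, with the mean as a bar and the SD as a whisker (cut at 0; WT has 1 library). For Col6a1 in mesenchymal cells the p21Het points lie above all p21mTert points, for Col3a1 in gCap cells a single p21Het library is high, and for Col23a1 in endothelial cells both p21mTertCD points are above the rest.

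Col6a1, the α1 chain of type VI, came closest to a difference shared by the fibroblast types. In mesenchymal cells it stood at 538, 490 and 434 CPM in p21Het, 382, 288, 384, 394 and 376 CPM in p21mTert_1 to p21mTert_5, 401 and 385 CPM in p21mTertCD, and 445 CPM in WT. The p21Het libraries lay above all of p21mTert and p21mTertCD. The log2 fold change of p21mTert against p21Het was -0.40 ± 0.12 (edgeR unadjusted p = 0.00602, adjusted p = 0.784). It was -0.44 ± 0.16 in adventitial and -0.54 ± 0.19 in alveolar fibroblasts, whose libraries also did not overlap (552 to 702 against 394 to 464 CPM, and 587 and 606 against 303 to 492 CPM). For p21mTertCD against p21Het it was -0.51 ± 0.20 in adventitial and -0.56 ± 0.23 in alveolar fibroblasts. In the 8 later libraries alone the mesenchymal value was -0.36 (adjusted p = 0.479). The partner chains did not share this order. Col6a2 ranged from 292 to 378 CPM in p21Het and from 250 to 352 CPM in p21mTert, and Col6a3 from 229 to 430 and from 269 to 382 CPM.

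Col15a1 and Col14a1, the genes that mark adventitial against alveolar fibroblasts, also had small unadjusted p-values. In mesenchymal cells Col15a1 stood at 54.7, 28.5 and 59.0 CPM in p21Het, 18.0 to 41.0 with a median of 21.5 CPM in p21mTert, and 20.7 and 23.1 CPM in p21mTertCD (p21mTert against p21Het -0.87 ± 0.28, edgeR adjusted p = 0.784). The p21mTert libraries overlapped those of p21Het, while both p21mTertCD libraries lay below all 3 of them (p21mTertCD against p21Het -1.02 ± 0.35, edgeR unadjusted p = 0.0117, adjusted p = 1.00). Adventitial fibroblasts made up 32.3% ± 9.99 of mesenchymal cells in p21Het, 22.7% ± 6.97 in p21mTert and 24.5% ± 0.66 in p21mTertCD. Within adventitial fibroblasts, Col15a1 in p21mTert lay between 44.5 and 130 CPM and overlapped p21Het (94.3 to 125 CPM), with a log2 fold change of -0.29 ± 0.29. In p21mTertCD it stood at 43.8 and 76.2 CPM there, again below all p21Het libraries (-0.72 ± 0.37, edgeR unadjusted p = 0.0650, adjusted p = 1.00). This last value lay between -1.31 and -0.23 over the alternatives, and the mesenchymal value of p21mTertCD against p21Het between -1.29 and -0.37. In alveolar fibroblasts Col14a1 stood at 67.4 and 47.7 CPM in p21Het and at 63.5, 11.99, 21.3, 13.1 and 34.8 CPM in p21mTert_1 to p21mTert_5 (-1.37 ± 0.40, edgeR adjusted p = 0.552). For p21mTertCD against p21Het it was -1.48 ± 0.48. The 8 adventitial markers summed to 1820 and 1898 CPM in alveolar fibroblasts of p21Het and to 1115 to 1560 CPM in those of p21mTert, and their part in the Col14a1 level was not tested.

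Col23a1 in endothelial cells had the smallest p of any member. It stood at 70.4 and 45.0 CPM in p21mTertCD, 29.7, 24.4 and 35.8 CPM in p21Het, 22.4, 19.9, 29.7, 21.8 and 35.8 CPM in p21mTert_1 to p21mTert_5, and 21.8 CPM in WT. Both p21mTertCD libraries lay above all others. The log2 fold change of p21mTert against p21mTertCD was -1.19 ± 0.24 (edgeR unadjusted p = 0.000337, adjusted p = 0.132). DESeq2 called it (adjusted p = 0.0072). In edgeR the log2 fold change was -1.57 without p21mTertCD_2 and -0.79 without p21mTertCD_1, and each of these fits holds a single p21mTertCD library. Lymphatic cells, the type in which it was highest, made up 7.38% and 3.79% of endothelial cells in p21mTertCD_1 and p21mTertCD_2, 4.24% to 5.00% in p21Het and 2.94% to 4.82% in p21mTert. With lymphatic cells left out, an alternative added after seeing the data, the log2 fold change was -0.69 (adjusted p = 0.932). For p21mTertCD against p21Het it went from 1.03 ± 0.27 to -0.56. Within lymphatic cells Col23a1 stood at 571 and 539 CPM in p21mTertCD, 397 and 279 CPM in p21Het and 347 to 458 CPM in p21mTert.

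The fibrillar genes in gCap cells rested on 1 library. Col3a1 stood at 56.1 CPM in p21Het_2, 8.98 CPM in p21Het_1 and 0 in p21Het_3, and from 0.56 to 15.3 CPM in p21mTert. Col1a1 followed the same order with 29.7, 2.99 and 1.16 CPM in p21Het and 0 to 7.61 CPM in p21mTert. The log2 fold changes of p21mTert against p21Het were -2.32 ± 0.91 for Col3a1 and -2.40 ± 0.88 for Col1a1 (edgeR adjusted p = 1.00 for both). Without p21Het_2, the value for Col3a1 was 0.36, and with the stricter lineage gate it was 0.61. With a replicate block in the later deposit, edgeR called Col3a1 (-5.28, adjusted p = 0.00198) and Col1a1 (-3.95, adjusted p = 0.0432), although equal numbers do not pair these libraries. Mesenchymal markers summed to 408 CPM in gCap cells of p21Het_2, where 9 of the 12 had UMIs. The other libraries lay at 217 to 504 CPM. The 504 CPM were in WT, where Lum, Mfap4, Notch3, Pdgfra and Tcf21 had none. This sum therefore cannot tell how much fibroblast RNA was present. The 8 alveolar fibroblast markers summed to 41.7 to 188 CPM in gCap cells of p21Het and 71.8 to 119 CPM in those of p21mTert. The part of these markers in the result was not tested. Over all endothelial cells the same 2 genes had the smallest p, with p21Het_2 again highest. Col1a1 stood at 3.98, 18.1 and 0.64 CPM in p21Het_1 to p21Het_3 and 0.44 to 4.53 CPM in p21mTert (-2.43 ± 0.83). Col3a1 stood at 12.4, 37.8 and 4.47 CPM in p21Het and 0.77 to 11.2 CPM in p21mTert (-2.14 ± 0.75, edgeR adjusted p = 1.00 for both). Without p21Het_2 these values were -0.47 and -0.75, and with the stricter lineage gate -0.30 and -0.72. Both pairs of groups overlapped. The other 3 of the 5 endothelial members with an unadjusted p under 0.05 in this comparison were Col4a4 (1.34 ± 0.48), Col6a3 (-1.45 ± 0.65) and Col1a2 (-1.66 ± 0.75), named after their values were seen. The mesenchymal markers summed to 495 CPM in endothelial cells of p21Het_2 and to 379 to 624 CPM in those of the other libraries. Their part in these values was not tested.

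In the epithelium, the collagens with the smallest p were in the comparison with p21mTertCD. Col27a1, a fibrillar collagen of cartilage, stood at 9.93 and 3.84 CPM in p21mTertCD and 0.61 to 2.31 CPM in p21mTert (-2.65 ± 0.57, edgeR adjusted p = 0.477). Its lymphoid level was 1.98 ± 0.947 CPM, in cells of fewer UMIs than the epithelial ones, so it is not a floor for them. Col8a1 stood at 6.16 and 16.8 CPM in p21mTertCD and 0 to 2.33 CPM in p21mTert (-3.01 ± 0.73, adjusted p = 0.512). Both pairs of groups were without overlap, at low levels. Over the alternatives the value for Col27a1 lay between -3.17 and -1.76 (the latter without p21mTertCD_1). That for Col8a1 lay between -6.52, with the cells of highest Scrublet score left out, and -2.16, without p21mTertCD_2. In AT2 cells, Col6a2 stood at 52.2 and 36.2 CPM in p21mTertCD, 20.3 to 30.1 with a median of 23.2 CPM in p21mTert, 24.5, 38.8 and 20.9 CPM in p21Het, and 11.8 CPM in WT, the lowest of the 11 libraries (p21mTert against p21mTertCD -0.90 ± 0.25, edgeR adjusted p = 0.687). Col12a1 was higher in p21mTert epithelium than in p21Het by 0.80 ± 0.26 (5.92 to 11.9 against 3.24 to 7.74 CPM, edgeR adjusted p = 0.472), and these groups overlapped. AT1 cells, in which Col12a1 was highest among epithelial types, made up 5.61% ± 2.92 of epithelial cells in p21mTert and 3.89% ± 1.63 in p21Het. Within AT2 cells the difference was 0.75 ± 0.30, with Col12a1 at 7.75, 2.59 and 10.1 CPM in p21Het and 7.59 to 11.02 CPM in p21mTert, which overlapped.

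The other members with the smallest p-values between genotypes are given here, some of them at low levels or with wide errors. None passed edgeR's test. Of the 54 fold changes named between genotypes, 25 moved by over 1.5 times in at least 1 alternative, 17 of them when a single library was left out. For p21mTert against p21Het, the anchoring-fibril gene Col7a1 had a log2 fold change of -0.92 ± 0.34 in epithelial and -0.78 ± 0.33 in AT2 cells, and Col11a2 and Col15a1 ones of -0.51 ± 0.23 and -0.50 ± 0.24 over all kept cells. Col6a5, another α chain of type VI, had one of -1.89 ± 0.92 in adventitial fibroblasts, where 46 of its 74 UMIs came from p21Het_3. It stood at 83.4 CPM in that library, 10.7 and 2.39 CPM in the other p21Het libraries and 0 to 25.8 CPM in p21mTert. Its value was -0.84 with a replicate block in the later deposit, and without p21Het_3 it had too few counts for the fit. In aCap cells, where few members were tested, Col4a1 had one of 0.06 ± 0.21 and Col4a2 one of -0.15 ± 0.23. Their p-values were not small (edgeR unadjusted p = 0.775 and 0.524). For p21mTert against p21mTertCD, Col8a2 had one of 0.93 ± 0.31 over all kept cells, Col4a4 one of 2.11 ± 0.67 in endothelial cells, Col28a1 one of 1.60 ± 0.65 and Col5a2 one of -0.50 ± 0.24 in mesenchymal cells. Col20a1 had one of 0.54 ± 0.28 over all kept cells, and Col7a1 one of -0.81 ± 0.40 in AT2 cells. In adventitial fibroblasts Col18a1 had one of -0.63 ± 0.32, which turned to 0.062 with the stricter type gate (a lead of 2 markers). Col28a1 had one of 1.05 ± 0.54 there. In alveolar fibroblasts Col4a2 had -0.46 ± 0.32 and Col4a1 -0.33 ± 0.30. In gCap cells Col15a1 had one of -1.01 ± 0.56 and Col18a1 one of -1.32 ± 0.82, and in aCap cells Col4a1 had -0.25 ± 0.21 and Col12a1 -0.28 ± 0.33. For p21mTertCD against p21Het, Col28a1 had one of -1.72 ± 0.70 in mesenchymal cells. Over all kept cells Col20a1 had one of -0.66 ± 0.30 and Col8a1 one of 0.96 ± 0.54. The value for Col8a1 lay between 0.61 and 2.20 over the alternatives. In epithelial cells Col27a1 had one of 1.73 ± 0.62 and Col8a1 one of 1.96 ± 0.79, which lay between 0.36 and 2.74 and between 1.11 and 6.85 over the alternatives. In AT2 cells Col6a2 had 0.63 ± 0.28. In endothelial cells Col5a2 had one of -0.54 ± 0.27. In gCap cells Col3a1 had one of -2.37 ± 1.38, which lay between -8.39 and 1.07 over the alternatives and so changed sign. Col18a1 had one of 1.41 ± 0.91 there, between 0.52 and 2.98. In aCap cells Col4a1 had 0.31 ± 0.26 and Col12a1 0.23 ± 0.38. Ciliated cells, in which Col8a2 was highest, made up 2.49% ± 0.80 of kept cells in p21mTert and 1.45% ± 0.33 in p21mTertCD, and the part of this share in the Col8a2 value was not tested. In AT2 cells Col8a1 had UMIs in 2 of the 11 libraries only, 13 in p21mTert_5 and 17 in p21mTertCD_2, and no fold is given.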

How the data were processed

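Matrices deposited by the authors hold raw UMI counts per gene and barcode, mapped to mm10 with Cell Ranger per the labels' protocols. Its version is not given here, because the labels and the file headers differ. The cell filters in those protocols were applied here. Cells joined a lineage with at least 3 of 12 markers and a lead of 2, and a type with at least 3 of 8 markers and more than any other type of the lineage. Doublets were not removed beyond cells of mixed lineage; Scrublet (scanpy 1.11.5) served as an alternative. Counts were summed per library and unit, and libraries with under 20 cells were left out. The quasi-likelihood test of edgeR 4.0.16 (R 4.3.3) was run after TMM scaling and the filterByExpr filter, with Benjamini-Hochberg adjustment over every gene tested, on 10 libraries with a term for genotype, or with a term for each library between types. A gene is called when its adjusted p is under 0.05. The SE of a fold change is its absolute log2 value divided by the square root of the test's F statistic. It is therefore derived from the test and can mislead where the fold change is near 0. DESeq2 1.42.0 was an alternative. The library is the replicate, and the labels do not say that libraries of a genotype came from separate mice, so p-values measure the spread between libraries. Precision is limited by cell numbers, such as 19 to 224 alveolar fibroblasts and 5 to 62 AT1 cells per library, and intervals cover counting error only. Named genes are members of at least 10 CPM by level, every called member or else the 2 of smallest p between genotypes, and between types up to 5 called members per direction with the largest fold and at least 10 CPM (3 for the list of 57 genes). The members and lists were chosen with earlier results of these data known.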

Additional observations from a re-analysis of the deposited data

Results flagged for a closer look

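Of 48 sets of p21mTert libraries behind the levels examined, 9 held a library whose gap to its nearest neighbour was large relative to the range of the group (Dixon's test at 95%). Chance flags about 1 in 20 such groups, and the sets share libraries. In p21mTert_2, the summed collagen level of alveolar fibroblasts was 3980 CPM with the next library at 5081, Col6a1 in mesenchymal cells was 288 CPM with the next at 376, and Col6a5 in adventitial fibroblasts was 25.8 CPM with the next at 5.36. In p21mTert_4, Col1a1 in endothelial cells was 4.53 CPM with the next at 1.12, and Col27a1 in epithelial cells was 2.31 CPM with the next at 1.07. In p21mTert_5, Col18a1 in gCap cells was 15.4 CPM with the next at 4.23, and Col8a1 in AT2 cells was 3.00 CPM with the other 4 libraries at 0. In p21mTert_3, Col15a1 in mesenchymal cells was 41.0 CPM with the next at 23.3. In p21mTert_1, Col12a1 in AT2 cells was 7.59 CPM with the next at 10.2.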

How the results depend on the processing

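Between genotypes, 937 of 967 alternative fold changes kept their direction and their side of the threshold, 19 changed sign and 11 passed it. Alternatives in which a gene had too few counts to be fitted are not among the 967. Col1a1 in gCap cells (p21mTert against p21Het), for example, was fitted in 12 of 19. Counts of collagens called, 0 in edgeR's test, moved in 11 of 495 alternatives. Without the filter on low counts, 1 was called in adventitial fibroblasts (Col6a5) and 1 in alveolar fibroblasts (Col14a1) and 2 in mesenchymal cells (Col15a1, Col6a5) for p21mTert against p21Het, 1 in endothelial cells (Col23a1) against p21mTertCD, and 1 in mesenchymal cells for p21mTertCD against p21Het. DESeq2 called 1 in endothelial (Col23a1) and 1 in epithelial cells (Col27a1) for p21mTert against p21mTertCD. Without the top Scrublet scores, 1 was called in epithelial cells (Col8a1) in each comparison with p21mTertCD. Leaving out p21mTertCD_2 also moved the endothelial count against p21mTertCD, but that fit holds a single p21mTertCD library. With a replicate block in the later deposit, 3 were called in gCap cells (Col1a1, Col1a2, Col3a1) for p21mTert against p21Het, and Col5a2 in mesenchymal cells went from -0.50 to 0.084 against p21mTertCD. Equal numbers do not pair libraries, whose deviations correlated at -0.197, 0.133, -0.487 and -0.140.

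Sign changes also arose with the stricter type gate for Col18a1 in adventitial fibroblasts (0.062, p21mTert against p21mTertCD), and with the stricter lineage gate for Col3a1 in gCap cells (0.61 for p21mTert and 1.07 for p21mTertCD against p21Het). Col4a1 in aCap cells (p21mTert against p21Het) was -0.15 in the later deposit and -0.061 with a term for deposit. Col23a1 in endothelial cells was -0.56 without lymphatic cells (p21mTertCD against p21Het). Leaving out single libraries gave ranges that cross 0. For p21mTert against p21Het these were -3.06 to 0.36 for Col3a1 in gCap cells, and -0.20 to 0.41 for Col4a1 and -0.51 to 0.37 for Col4a2 in aCap cells. For p21mTertCD against p21Het they were -8.39 to 0.27 for Col3a1 in gCap cells, and -0.67 to 0.63 for Col12a1 and -0.059 to 0.65 for Col4a1 in aCap cells. For p21mTert against p21mTertCD they were -0.67 to 0.63 for Col12a1 and -0.55 to 0.12 for Col4a1 in aCap cells, -0.70 to 0.12 for Col4a1 and -0.91 to 0.044 for Col4a2 in alveolar fibroblasts, and -1.003 to 0.20 for Col5a2 in mesenchymal cells. Col12a1 in aCap cells was -0.084 without p21Het_2 (p21mTertCD against p21Het). The cause was not tested.

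Between types, 472 of 507 alternative fold changes kept direction and call, and none changed sign. Here too, alternatives in which a gene had too few counts are left out. The 2 members higher in aCap became 1 under DESeq2, in the later deposit, without the library block and with the stricter type gate, and 1 to 2 without single libraries. The 4 lower became 2 without top Scrublet scores and with the stricter lineage gate, 0 without the library block and 8 without the low-count filter. Such counts fall where a call is lost, and also where a member has too few counts to be tested. Of the 18 alternatives, Col3a1 and Col5a2 each had a value in 12. The 5 higher in alveolar fibroblasts became 3 without the library block and were 3 to 6 over all alternatives, and the 15 lower were 10 to 17. Of arterial cells, the 6 higher became 1 without the block and 3 with the stricter type gate. The 4 lower became 2 under DESeq2, without the block and with the stricter type gate, 7 without the filter, and 2 to 4 without single libraries. Not run were pericytes against smooth muscle, AT1 cells between genotypes, and the replicate block in alveolar fibroblasts and aCap cells, for lack of libraries with 20 cells. Depth limits members under a few CPM, whose fold changes rest on few UMIs.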
